A study of Mus musculus with 20 samples.

Results

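Cytosolic ribosomal protein genes were followed across the day in dermal lymphatic endothelial cells (LECs) of the mouse ear. The members were all rows whose gene symbol has the form of a ribosomal protein of the large subunit (Rpl, Rplp) or of the small subunit (Rps, Rpsa), without pseudogene symbols, which gave 84 of the 24062 genes in the files, 52 of the large and 32 of the small subunit. Of these, 81 passed the filter on low counts and were tested with 19209 genes in all. Rpl10l, Rpl26 and Rpl39l did not pass.

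All libraries came from wild type C57BL/6 mice (C57BL/6N in the study's methods) at postnatal day 56 under a light-dark cycle. By their labels the groups differed only in the zeitgeber time (ZT, hours after lights on) at which the ears were taken. This was ZT1, ZT7, ZT13 or ZT19. Each group held 5 replicates, each a pool of LECs that had been sorted as CD31+podoplanin+ cells from the ears of a pair of mice. Since each library is a bulk pool, fewer cells of a type and less RNA per cell cannot be told apart. Between 4475111 and 42002363 reads fell on genes per library, and the 2 libraries with the fewest genes detected were ZT19 replicate 1 with 12477 and ZT13 replicate 5 with 13309.

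Ribosomal proteins are the protein part of the ribosome, in which the small subunit reads the mRNA and the large subunit joins the amino acids. Their mRNAs are short, abundant and made in all cells, and in mammals most begin with a run of pyrimidines, the 5-prime TOP motif, through which mTORC1 and LARP1 govern their translation. In mouse liver the translation of these mRNAs and the making of ribosomes are known to follow the time of day. Several members, such as Rplp0, Rpl13a, Rps18 and Rpl32, are in wide use as reference genes, and the study normalized its quantitative PCR to Rpl32.

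Promoter windows of 250 bases before to 50 bases after the start site, from RefSeq on GRCm38.p6, were matched for 63 of the 84 members, in 75 windows. The stretches around the start site are shown for those of the 6 members with the smallest p among the time points in which a run was found, and for Rps18 and Rpl15, to show the pyrimidine runs found there. No such run was found for Rps19, also one of the 6. Each is written 5′ to 3′ on the strand of the gene, and capitals mark the longest run of C and T, whose place differs, with its first base at -21 from the start site in Rpl39 and at 23 in Rps7.
Rps6, chr4:86857349-86857378, minus strand: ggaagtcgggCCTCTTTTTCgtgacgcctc
Rpl13a, chr7:45128722-45128751, minus strand: cgacaagaCCTCCTCCTTTCCCaggcggct
Rpl14, chr9:120571501-120571530, plus strand: agggcgggCCCTCTCTCTTCTCgctgagcg
Rpl39, chrX:37085224-37085253, minus strand: gagtcatccaTCCCCCCCTaagctccgcct
Rps7, chr12:28635910-28635939, minus strand: tgtccccaCCTCTTTTCTTCCgccacccgg
Rps18, chr17:33955647-33955676, minus strand: tcacttccgCTCTCTCTTCCacaggaggcc
Rpl15, chr14:18270967-18270996, minus strand: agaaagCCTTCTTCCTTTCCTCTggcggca

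A run of at least 8 bases that were C or T lay within 30 bases of the start site in 49 of the 75 windows (65.3%), and in 27.3% of the 32851 windows of all genes. The letters CGGAAG or, on the other strand, CTTCCG, the core to which ETS factors bind, were in 45 windows (60.0%) and in 16.9% of all windows. The ETS core can overlap the pyrimidine run. The E-box CACGTG, which reads the same on both strands and to which the clock factors CLOCK and BMAL1 bind, was in 8 windows (10.7%) and in 7.2% of all windows, and it is shown in capitals for the 3 of those 6 members that held it.
Rps19, chr7:24884781-24884810, plus strand: tggagccgcggcCACGTGcgagcggcaggc
Rpl13a, chr7:45128928-45128957, minus strand: cgctccgaaaccCACGTGacatcccgcccc
Rpl14, chr9:120571337-120571366, plus strand: ccaagctcactgCACGTGtctgaggagaag
These matches describe the letters in the windows and were not tested as binding sites.

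The share of the reads on genes that fell on the 84 members differed more between replicates of 1 time point than between the medians of the time points. At ZT1 the shares were 2.5%, 6.78%, 4.21%, 3.01% and 7.50%. At ZT7 they were 8.56%, 2.11%, 2.10%, 2.49% and 2.36%, so that 1 library stood far above the other 4. At ZT13 they were 2.02%, 6.40%, 2.23%, 3.17% and 0.884%. At ZT19 they were 1.34%, 1.48%, 2.77%, 10.2% and 4.10%, the widest range of the time points. The medians were 4.21%, 2.36%, 2.23% and 2.77%, while the highest library exceeded the lowest by 3.0 times at ZT1, 4.07 times at ZT7, 7.25 times at ZT13 and 7.65 times at ZT19. All 4 ranges overlapped. The exact 95% binomial intervals of these shares reach at most 0.0213 percentage points to either side and cover counting error only, since the amplified reads carry no molecular identifiers.

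The ratio of reads on large subunit genes to reads on small subunit genes was much steadier than the share itself. It lay between 1.15 and 1.5 over the 20 libraries (mean 1.30 ± 0.0764, SD), while the share ranged over 11.6 times. The ratio was 1.15 to 1.26 at ZT1, 1.26 to 1.5 at ZT7, 1.25 to 1.31 at ZT13 and 1.31 to 1.4 at ZT19. This ratio depends on single members with many reads, was singled out after its values were seen and was not tested.

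**Figure D1:**
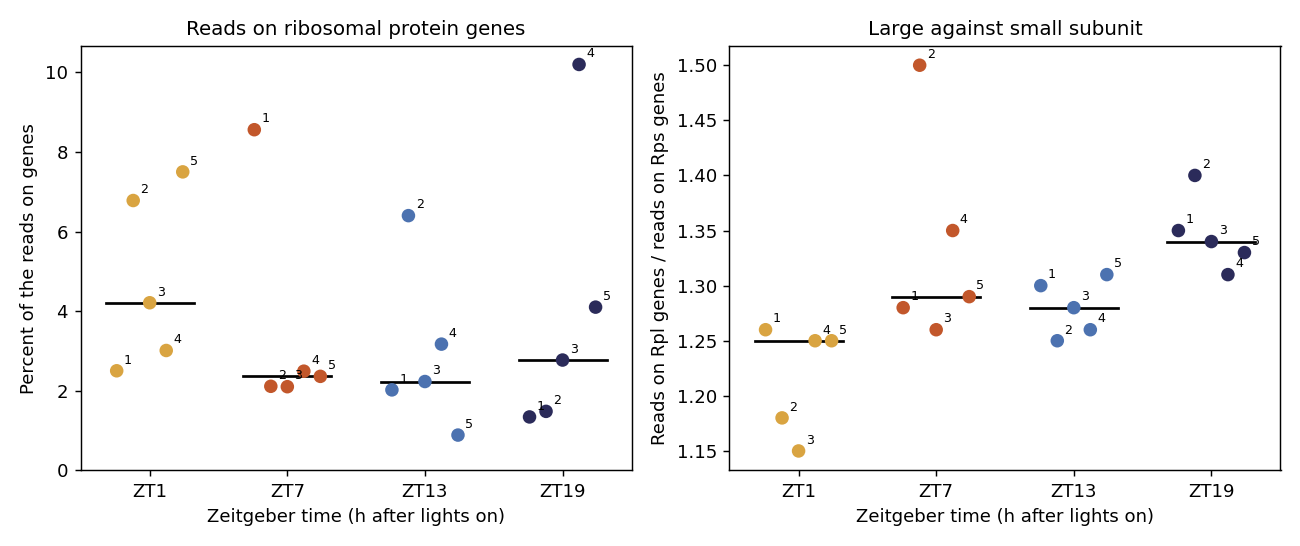
The left panel plots the percent of the reads on genes that fell on the 84 members (vertical axis) in each library by zeitgeber time, and the right panel plots the ratio of reads on Rpl genes to reads on Rps genes. Points are libraries labelled with the replicate number and bars are medians of 5. The share runs from 0.884% at ZT13 to 10.2% at ZT19, while the ratio stays between 1.15 and 1.5.

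Across libraries the members moved together. The log2 normalised count of a member correlated with the mean of the other members with a median Pearson r of 0.963 over the 20 libraries, and 65 of the 81 members had an r of at least 0.9. Within time points, after the mean of each time point was subtracted, the median r was 0.972 and 68 members reached 0.9. These points share the library, its depth and its composition, so the values describe the libraries and were not tested. For comparison, the 19128 other genes tested had a median r of 0.0696 with the mean of the members, and 60 of them reached 0.9.

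The same few libraries held the extremes of nearly all members. ZT19 replicate 4 was the highest of all libraries for 48 members and ZT7 replicate 1 for 16, whereas ZT13 replicate 5 was the lowest of all for 69. Within its own time point, ZT7 replicate 1 was the highest library for 77 of 81 members, and ZT13 replicate 2 and ZT19 replicate 4 for 74 each. ZT13 replicate 5 was the lowest at ZT13 for 74 members. The order of the members per kb was largely kept from library to library, with a median Spearman rho of 0.930 between a library and the mean of the others over 81 members (range 0.772, in ZT13 replicate 5, to 0.975).

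**Figure D2:**
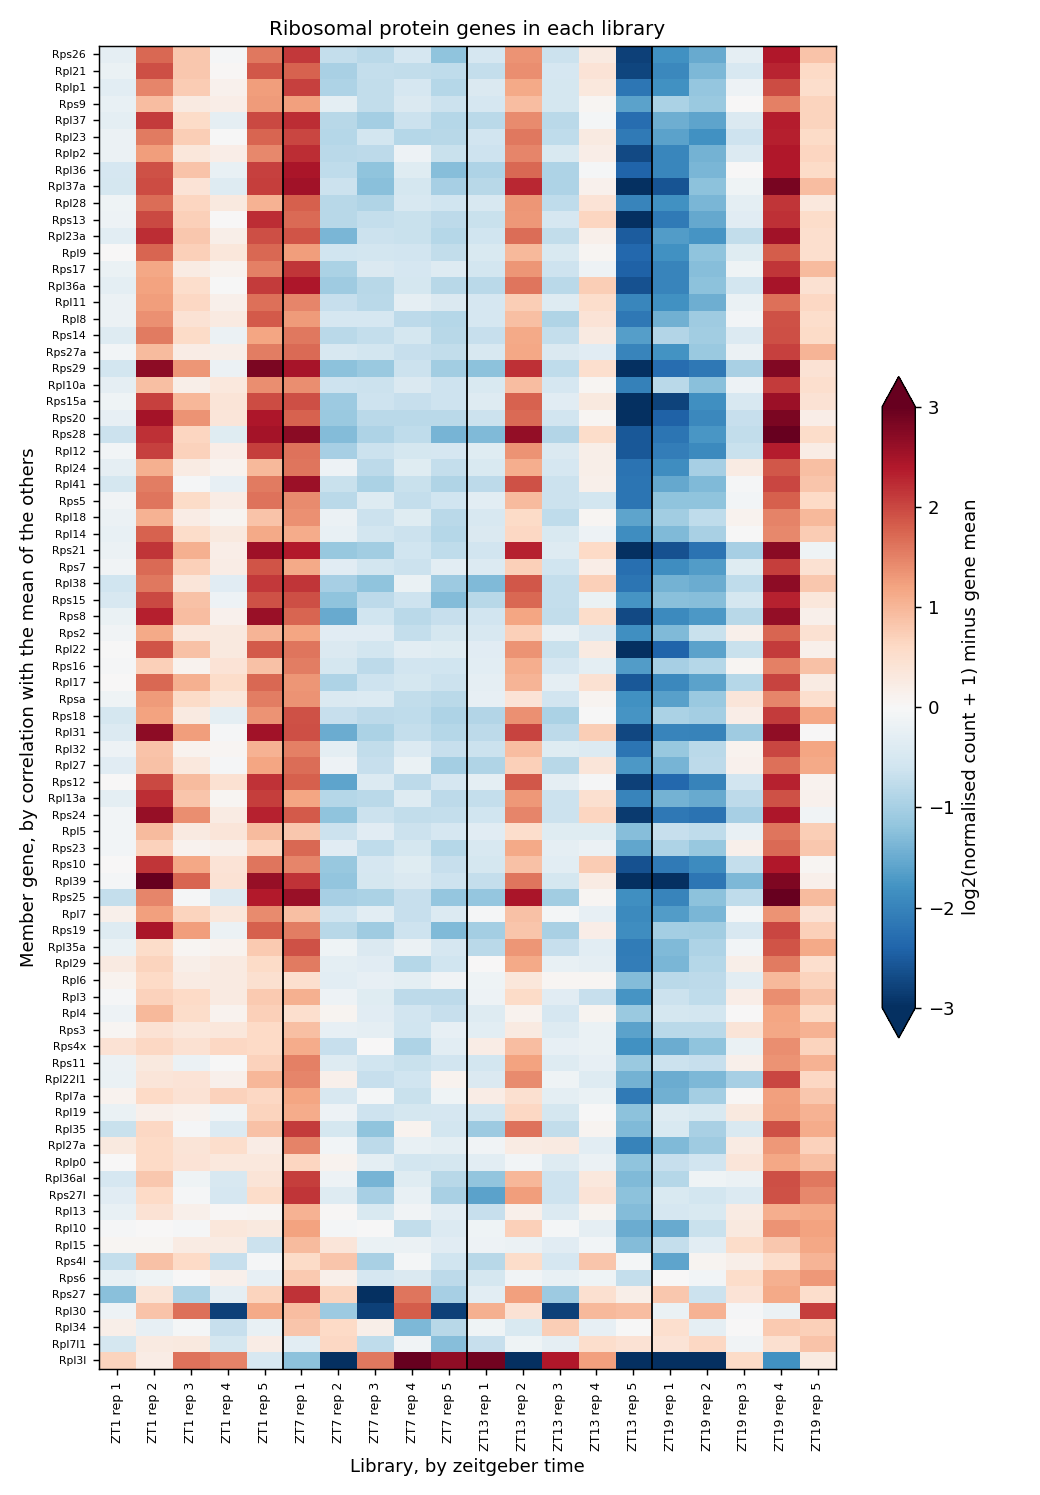
The colour gives log2(normalised count + 1) minus the mean of the gene, for 80 of the 81 members tested (rows, by their correlation with the mean of the others) in each of the 20 libraries (columns, black lines between time points). The most strongly coloured columns are red (ZT1 replicates 2 and 5, ZT7 replicate 1, ZT13 replicate 2, ZT19 replicate 4) or blue (ZT13 replicate 5, ZT19 replicates 1 and 2). ZT1 replicate 3 and ZT19 replicate 5 are mostly a weaker red, and ZT7 replicates 2 to 5 and ZT13 replicates 1 and 3 mostly a weaker blue. The members at the foot of the plot, down to Rpl3l with r = -0.00993, lack this pattern.

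Other properties of the libraries were set beside the members, and some of them moved with the members. Over the 20 libraries the mean level of the members had r = 0.767 with the percent of genic reads that HTSeq called ambiguous and r = 0.547 with the percent of reads that were not aligned. It had r = -0.355 with the log2 number of reads on genes, r = -0.168 with the slope of expression on transcript length and r = 0.166 with the mean of 14 keratinocyte markers. The mean of 8 lymphatic endothelial markers had r = 0.556 and that of 10 leukocyte markers r = 0.130. The part of these properties in the levels of the members was not tested.

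No member passed the edgeR test in any comparison. Among the 4 time points, edgeR called 0 of 81 members, where it called 0.422% of all genes tested, and 1 member, Rps6, had an unadjusted p under 0.05 (1.23%, against 15.7% of all genes). Leaving out 1 library gave 0 to 15 members at that p, with 15 of 82 (18.3%, against 20.6% of all genes) without ZT19 replicate 4 and 14 (17.1%, against 18.2%) without ZT7 replicate 1. DESeq2 called 0 of 80 members with an adjusted p, where it called 3.54% of all genes. For a 24-h rhythm, edgeR called 0 members (0.0312% of all genes), 1 member, Rps19, had an unadjusted p under 0.05 (9.23% of all genes), and DESeq2 called 0 of 77 (0.595% of all genes). Here leaving out 1 library gave 0 to 16 members at the unadjusted p, with 16 of 82 (19.5%, against 12.8% of all genes) without ZT7 replicate 1 and 12 (14.6%, against 10.4%) without ZT13 replicate 2. The fitted peak lay between ZT18 and ZT2 for 77 of the 81 members, with a median amplitude of 0.43 on the log2 scale. Since the members moved together across libraries, these are not independent observations. The share of all genes with such a peak is not given here. The mean over 5 libraries was highest at ZT1 for 56 members and at ZT19 for 23, and it was lowest at ZT13 for 66. This order rested on single libraries. Without ZT7 replicate 1 the median log2 fold change of the members from ZT7 to ZT13 was 0.54. Without ZT19 replicate 4 that from ZT13 to ZT19 was -0.25.

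The pairs of time points gave the same picture. From ZT1 to ZT7 the median log2 fold change of the members was -0.54, beside 0.05 for all genes tested. A negative value was found for 70 members, while 52.5% of all genes had a positive one. edgeR called 0 members (0.00521% of all genes), 1 had an unadjusted p under 0.05 (4.97% of all genes) and DESeq2 called 0 (0.121% of all genes). The member with the smallest p was Rpl13a, with a log2 fold change of -1.39 ± 0.67 (SE) and an edgeR adjusted p of 0.995.

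From ZT1 to ZT13 the median was -0.74, beside -0.06 for all genes. Negative values were found for 77 members, while 46.2% of all genes had a positive one. With an offset for transcript length the median was -0.08, beside 0.57 for all genes. edgeR called 0 members (0.0208% of all genes), 3 had an unadjusted p under 0.05 (5.37% of all genes) and DESeq2 called 0 (0.820% of all genes). These were Rps19, Rpl14 and Rps7, with log2 fold changes of -1.63 ± 0.68, -1.13 ± 0.53 and -1.28 ± 0.62 (SE) and edgeR adjusted p of 0.772, 0.882 and 0.914. From ZT1 to ZT19 the median was -0.20, beside -0.39 for all genes, so that the members lay above the shift of all genes. This order turned in 4 of 33 alternative fits, to -1.05 beside -0.60 without ZT19 replicate 4, to -0.22 beside -0.02 with at least 50 counts in at least 5 libraries, to -0.13 beside 0.06 with only these time points, and to 0.45 beside 0.65 with an offset for transcript length. edgeR called 0 members (0.0156% of all genes), 1, Rps6, had an unadjusted p under 0.05 (21.6% of all genes) and DESeq2 called 0 (10.4% of all genes). Without ZT19 replicate 4, 30 of 82 members were at that p, as were 5702 of 19805 genes.

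From ZT7 to ZT13 the median was -0.20, beside -0.07 for all genes, but its sign turned, to 0.54 without ZT7 replicate 1, to 0.03 without ZT13 replicate 5 and to 0.24 with an offset for transcript length. edgeR called 0 members (0.0937% of all genes), 0 had an unadjusted p under 0.05 (2.59% of all genes) and DESeq2 called 0 (0.630% of all genes). From ZT7 to ZT19 the median was 0.35, beside -0.20 for all genes, and 78 members had a positive value, as did 42.6% of all genes. This median was 0.11 with upper quartile normalization (all genes -0.49) and 0.12 with total count normalization (all genes -0.44). With an offset for transcript length it was 0.70, beside 0.67 for all genes. edgeR called 0 members (0.0156% of all genes), 2 had an unadjusted p under 0.05 (19.7% of all genes) and DESeq2 called 0 (10.8% of all genes). These 2 were Rps6, at 0.72 ± 0.34 with an edgeR adjusted p of 0.236, and Rpl7l1, at 0.71 ± 0.34 with 0.245 (log2 fold change ± SE).

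From ZT13 to ZT19 the median was 0.52, beside -0.22 for all genes. A positive value was found for 80 of the 81 members, all but Rpl3l, and for 42.1% of all genes. edgeR called 0 members (0.588% of all genes), 2 had an unadjusted p under 0.05 (19.2% of all genes) and DESeq2 called 1, Rps6 (9.26% of all genes). The other of the 2 was Rpl15, a large subunit protein, at 0.80 ± 0.36 (SE) with an edgeR adjusted p of 0.215. The pairs share libraries and are not independent of each other. Single libraries moved these medians. Without ZT19 replicate 4 the median of the members was -0.25 from ZT13 to ZT19 (all genes -0.42), -0.45 from ZT7 to ZT19 (all genes -0.45) and -1.05 from ZT1 to ZT19 (all genes -0.60), where edgeR then called 3 of 82 members (3.66%), Rpl39, Rps10 and Rps24, and 4.55% of all genes. Without ZT7 replicate 1 the median from ZT1 to ZT7 was -1.37 and 50 members had an unadjusted p under 0.05 (6.49% of all genes), with 0 called. Without ZT13 replicate 2 the median from ZT1 to ZT13 was -1.31, with 37 members at that p (5.85% of all genes) and 0 called. From ZT7 to ZT19, 27 of 82 members were at that p without ZT7 replicate 1 (32.9%, against 23.4% of all genes), with a median of 1.10. From ZT13 to ZT19, 20 of 82 were without ZT13 replicate 2 (24.4%, against 21.2%), with a median of 1.05. From ZT13 to ZT19 the median of the members lay above that of all genes in all 33 alternative fits, by 0.17 to 1.27.

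**Figure D3:**
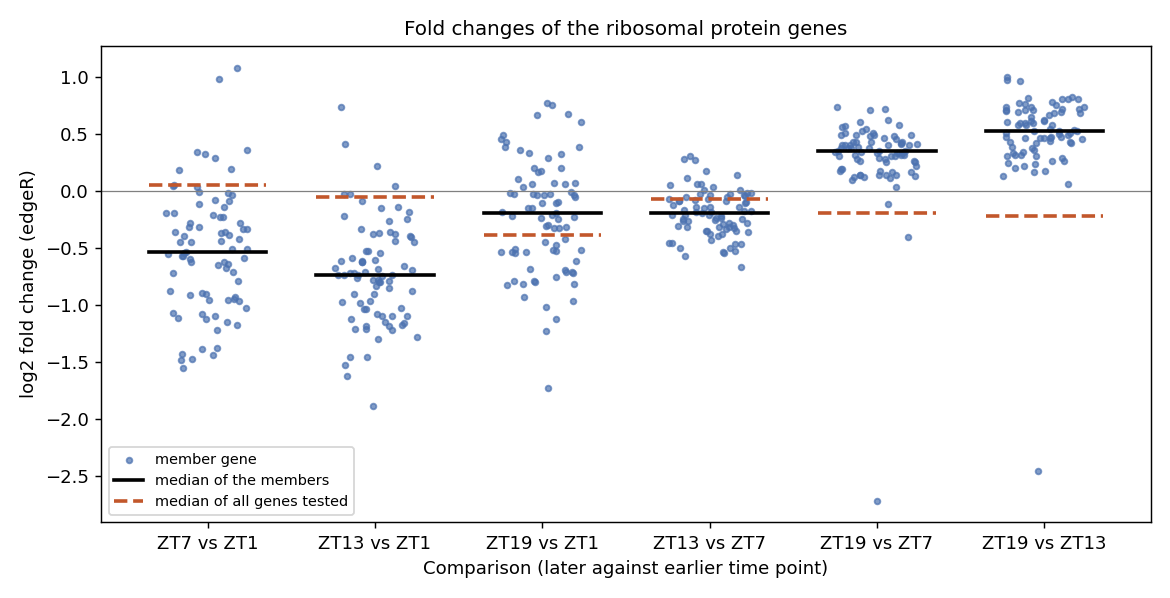
Each point is the log2 fold change (edgeR) of 1 of 80 of the 81 members between the time points of a pair, later against earlier. Black bars are the medians of the members and dashed bars those of all 19209 genes tested. The members sit mostly below 0 from ZT1 to ZT13 (median -0.74) and above 0 from ZT13 to ZT19 (median 0.52), and the lone low point in the last 2 pairs is Rpl3l.

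Rps6 encodes the small subunit protein that S6 kinase phosphorylates downstream of mTORC1, and its gene lies at chr4:86854660-86857412 on mm10. Its normalised counts were 1694, 1807, 1980, 2196 and 1659 at ZT1, and 3399, 2171, 1390, 1454 and 1131 at ZT7. They were 1371, 1832, 1668, 1780 and 1190 at ZT13, and 1992, 1865, 2893, 4078 and 4848 at ZT19. Every library at ZT19 was above every library at ZT13, although the lowest at ZT19 exceeded the highest at ZT13 only slightly, and ZT7 replicate 1 was above 3 of the 5 libraries at ZT19. Of the 81 members only Rps6 (1.23%) had its lowest library at ZT19 above its highest at ZT13, as did 1.87% of all genes. The mean was 1568 ± 276.7 at ZT13 and 3135 ± 1304 at ZT19 (SD, n = 5), a log2 fold change of 1.0 ± 0.34 (SE) with an edgeR adjusted p of 0.107 and a DESeq2 adjusted p of 0.0494. Among the 4 time points the edgeR adjusted p was 0.266. Rps6 also followed the other members less closely than most, with r = 0.567 over the 20 libraries. Of the 100-base windows of its transcript, 83.6% also occur in transcripts of 9 genes elsewhere, so its count is uncertain where reads could be placed on copies.

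Rpl32, the large subunit gene to which the study normalized its quantitative PCR, lies at chr6:115805505-115808747 and shares none of its 100-base windows with other transcripts. The libraries had normalised counts of 5865, 11865, 7098, 6795 and 13429 at ZT1, and 18761, 5381, 3937, 4909 and 4085 at ZT7. They were 4217, 12355, 5105, 4931 and 1431 at ZT13, and 2989, 3769, 7066, 26461 and 14823 at ZT19. All groups overlapped, and the highest and lowest libraries differed by 18.5 times. The edgeR adjusted p among the 4 time points was 0.714.

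Rplp0, the base of the stalk to which translation factors bind, was among the steadiest members. Its normalised counts were 9358, 14056, 12436, 11641 and 11534 at ZT1, and 14606, 10076, 7549, 6313 and 6486 at ZT7. They were 7527, 8825, 7103, 8285 and 4053 at ZT13, and 5783, 6221, 11943, 20752 and 17413 at ZT19. All libraries at ZT13 were below all at ZT1, which held for 1 (1.23%) of the 81 members and for 0.984% of all genes, and ZT7 and ZT19 overlapped each of these. The range over the libraries was 5.12 times, and the log2 fold change from ZT1 to ZT13 was -0.72 ± 0.40 (SE, edgeR adjusted p = 0.991).

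Rps18, of the small subunit head, had normalised counts of 3841, 12661, 6630, 4528 and 14109 at ZT1, and 20806, 3390, 3203, 3234 and 2927 at ZT7. They were 3013, 14238, 2856, 5513 and 1615 at ZT13, and 2866, 2708, 6367, 23591 and 12300 at ZT19. At ZT7, 4 libraries lay within a narrow band and 1 stood far above them, and all groups overlapped (edgeR adjusted p among the 4 time points 0.849). Rpl13a, known also from the GAIT complex that silences translation, ranged over 18.4 times. Its normalised counts were 5192, 29778, 11385, 6623 and 26876 at ZT1, and 14603, 3526, 3637, 4924 and 3722 at ZT7. They were 3868, 15767, 4076, 8985 and 1620 at ZT13, and 2388, 2231, 3683, 24136 and 6948 at ZT19. The mean was highest at ZT1, with overlap of all groups (edgeR adjusted p 0.481 among the 4 time points).

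Rps19, a small subunit protein mutated in Diamond-Blackfan anaemia, had the smallest p for a 24-h rhythm (0.0428, edgeR adjusted p = 0.541). In single libraries the normalised counts were 5260, 37664, 16589, 6093 and 24067 at ZT1, and 19960, 3900, 3292, 4489 and 2762 at ZT7. They were 3415, 12308, 3525, 7905 and 1885 at ZT13, and 3426, 3329, 4987, 27661 and 11325 at ZT19. The ZT1 libraries ran from near the level of the lower ZT13 libraries to the highest value of all, so the groups overlapped. Rpsa, the small subunit protein also known as the laminin receptor, ranged from 1548 to 15804 over the libraries, and Rps27a, made as a fusion with ubiquitin, from 787 to 12960. Their edgeR adjusted p among the 4 time points were 0.567 and 0.819.

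**Figure D4:**
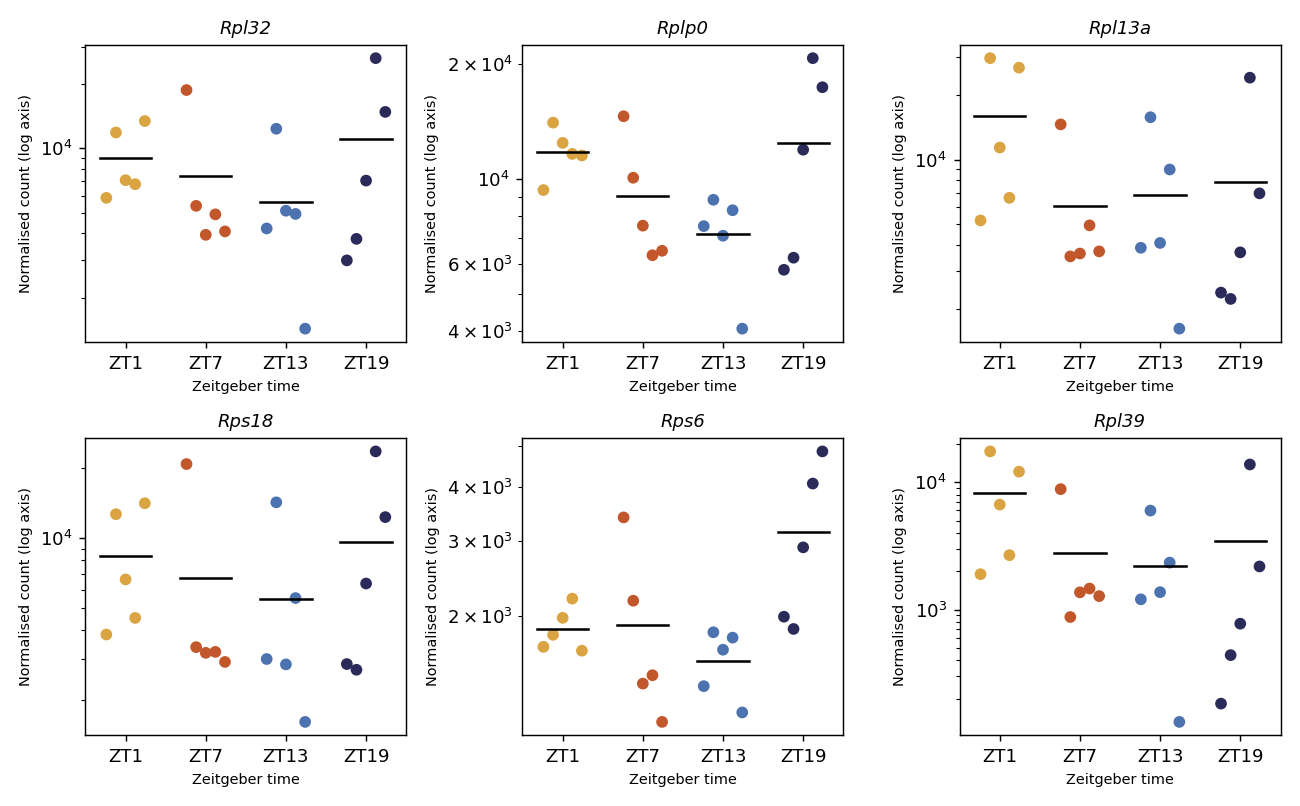
Normalised counts (log axis) of 6 members in each library by zeitgeber time, with bars at the mean of 5. Rpl32, Rpl13a and Rps18 spread over 18.5, 18.4 and 14.6 times and Rpl39 over 133 times, while Rplp0 and Rps6 spread over 5.12 and 4.29 times, and only Rps6 has all ZT19 points above all ZT13 points.

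The spread over the libraries went with the length of the protein. For the 73 members with a mean of at least 1000 normalised counts, the SD of log2(normalised count + 1) over the 20 libraries had r = -0.660 with the log2 coding length, across genes, which are not independent replicates. The median SD was 1.37 for the 33 members with a coding length of up to 450 nt, 1.13 for the 19 members up to 600 nt and 0.85 for the 21 members above 600 nt. Within these classes r was -0.392, -0.245 and -0.394. Among the 2158 other genes at that level the same r was -0.153, with -0.357 for the 397 with a coding length of up to 600 nt and 0.0138 for the 1761 above it, and their median SD was 0.74 and 0.61. The mean of these 397 short genes had r = 0.738 with the mean of the members over the 20 libraries and that of the long genes r = 0.626.

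Rpl39, with a coding length of 153 nt among the smallest proteins of the large subunit, had the widest spread. Its normalised counts were 1895, 17453, 6668, 2673 and 12102 at ZT1, and 8819, 874, 1365, 1462 and 1275 at ZT7. They were 1203, 5985, 1369, 2336 and 131 at ZT13, and 182, 439, 775, 13776 and 2180 at ZT19. The highest library was at ZT1 and the lowest at ZT13, and ZT19 held values near both. Rps29 (168 nt) ranged over 58.0 times and Rps28 (207 nt) over 47.6 times. Among the long members, Rpl6 (888 nt) ranged over 4.77 times, Rpl4 (1257 nt) over 4.87 times and Rps3 (729 nt) over 6.79 times. Rpl41, with the shortest coding sequence, ranged over 27.1 times.

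**Figure D5:**
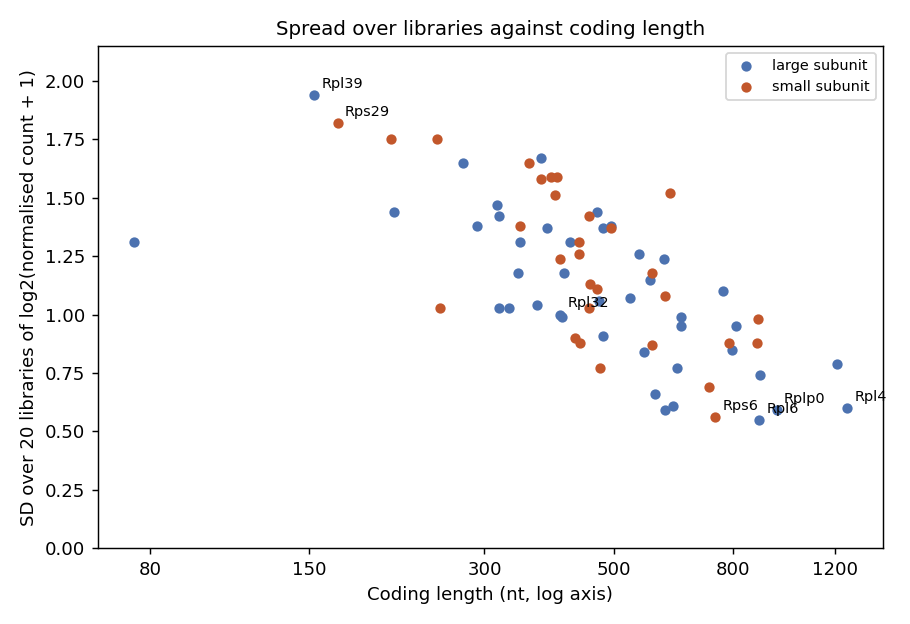
The SD over 20 libraries of log2(normalised count + 1) is plotted against coding length (nt, log axis) for 72 of the 73 members with a mean of at least 1000 normalised counts. The SD falls from 1.94 for Rpl39 to 0.55 for Rpl6.

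Levels per kb of transcript allowed members to be compared with each other. Rps29 had the highest level, 35000 normalised counts per kb, and Rpl41 with 20100 and Rps14 with 19500 were also among the highest. In single libraries Rps29 had 4490, 42399, 16518, 5847 and 46545 normalised counts at ZT1, and 36328, 2817, 3028, 4241 and 3218 at ZT7. It had 2797, 29996, 3903, 9414 and 803 at ZT13, and 1342, 1482, 3369, 45524 and 8893 at ZT19. A handful of libraries carried most of its reads, and each time point held at least 1 of them. At ZT1 its level was 59400 ± 51400 per kb (SD, n = 5). The order depends on the transcript that was chosen for the length, which for Rps15a (5179 nt) and Rps20 (3706 nt) was far longer than the coding sequence.

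At the other end, the lowest members tested were Rps27 with 108 normalised counts per kb, Rpl34 with 63.2, Rpl30 with 17.2 and Rpl3l with 12.8. Rps27, Rpl34 and Rpl30 encode core ribosomal proteins, as does Rpl26, which had 4 reads in all, in 1 of the 20 libraries. Rpl30 had between 0 and 29 normalised counts per library and Rpl34 between 10 and 50. Of the 100-base windows of Rps27, 98.4% also occur in transcripts of other genes as do 31.0% of those of Rpl34, 32.5% of those of Rpl30 and 36.8% of those of Rpl26, with a median of 31.9% over the 84 members. The part of shared sequence in these low counts was not tested. The files hold only reads that HTSeq placed on 1 gene, so these low counts are uncertain as levels of the mRNA. They were also among the members that followed the others least, with r = 0.373 for Rps27, 0.245 for Rpl30 and 0.167 for Rpl34.

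Paralogues of ribosomal proteins, which replace or accompany the usual protein in certain tissues, were mostly far below it. Rpl3, at the centre where peptide bonds form, had 5300 ± 2820 normalised counts per kb (SD, n = 20), and Rpl3l, its form in heart and skeletal muscle, 12.8 ± 15.1. Rpl10l, at 5.51 ± 8.47 per kb, and Rpl39l, at 6.74 ± 11.2 per kb, which are known from the testis, had no count in 11 and 9 libraries, while Rpl10 and Rpl39 had 4030 ± 2190 and 6780 ± 8270 per kb. Rpl7l1, at 352 ± 125 per kb against 4620 ± 2770 for Rpl7, had r = -0.0803 with Rpl7 over the libraries. Rps4l, which GENCODE M21 annotates as a transcribed processed pseudogene without a coding sequence although its symbol is that of a gene, had 1070 ± 494 per kb and was below its partner Rps4x, at 5670 ± 3050, in all 20 libraries.

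Other pairs were closer. Rpl22 and Rpl22l1, which replace each other in the large subunit, had 1360 ± 1180 and 1040 ± 782 per kb (SD, n = 20), with Rpl22 higher in 13 of 20 libraries and r = 0.891 between them. The ratio of Rpl22 to Rpl22l1 per kb was 1.25 to 3.23 at ZT1, 0.751 to 1.38 at ZT7, 0.372 to 1.78 at ZT13 and 0.604 to 1.44 at ZT19, so that its median was highest at ZT1 and all groups overlapped. Rpl36a had 6530 ± 6860 per kb and Rpl36al 1930 ± 1660, with Rpl36a higher in all 20 libraries. Rps27l, a target of p53, had 6590 ± 5700 per kb and was above Rps27 in all 20, where the count of Rps27 is uncertain as given above.

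The 5 genes outside the members with the pattern most like theirs were Gas5 (r = 0.983 with the mean of the members over 20 libraries), Fau (0.976), Mt2 (0.966), Mir682 (0.961) and Mrpl52 (0.961). Fau encodes a small subunit protein fused to a ubiquitin-like one, Gas5 is a noncoding host of small nucleolar RNAs, Mt2 is a metallothionein and Mrpl52 belongs to the mitochondrial ribosome. Of the 4 tested ribosomal protein genes with other symbols, Fau, Gnb2l1 and Rps3a1 had r of 0.976, 0.932 and 0.906, and 0 of the 4 were called in any comparison.

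Genes of related pathways were taken from written lists, to be read against the 0.422% of all genes called among the 4 time points and the 15.7% with an unadjusted p under 0.05. Of 17 other genes whose mRNAs carry a 5-prime TOP motif, 0 were called among the 4 time points by edgeR and 1 had an unadjusted p under 0.05, and their mean followed the members with r = 0.953. Singly, 13 of the 17 reached an r of 0.7, while Eef1a1 had 0.277 and Eef2 0.525. The lists overlap, since Eef1a1, Eef2, Eef1b2, Eef1d and Eef1g are also among the elongation factors. Likewise Eif4b, Eif3e, Eif3f and Eif3h are also among the initiation factors. Of 8 elongation factors 0 were called (2 at the unadjusted p), with r = 0.643 for their mean, and of 34 initiation factors 0 (9 at the unadjusted p), with r = 0.794. Of 77 mitochondrial ribosomal protein genes 0 were called (19 at the unadjusted p), with r = 0.697. Of 52 genes of ribosome biogenesis 1, the RNA helicase gene Ddx21, was called (adjusted p = 0.0476), and 18 had an unadjusted p under 0.05. Of 29 genes of the mTORC1 and S6 kinase pathway 0 were called (4 at the unadjusted p), and their mean had r = 0.410. Of the genes upstream, Mtor had r = -0.507 with the mean of the members, Larp1 -0.172, Rps6kb2 -0.243 and Rps6kb1 0.632.

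Beside the members, markers of keratinocytes, the main cells of the epidermis, and of fibroblasts were examined as signs of other cells in the sort. Of 14 keratinocyte genes, 5 were called among the 4 time points by edgeR, and all 5 calls between ZT13 and ZT19 were higher at ZT19. From ZT7 to ZT13, 3 were called lower, and from ZT1 to ZT19, 1 was called higher. Their summed normalised count was 34880 to 69190 at ZT1, 59920 to 178800 at ZT7, 10370 to 31010 at ZT13 and 91870 to 182600 at ZT19. The defining marker Krt14 was 2.86 higher on the log2 scale at ZT19 than at ZT13 (edgeR adjusted p = 0.00368) and had r = 0.200 with the mean of the members. With the keratinocyte mean as a covariate, the median log2 fold change of the members from ZT13 to ZT19 was 0.69, beside -0.58 for all genes. All 8 lymphatic endothelial markers were detected, with a summed normalised count of 45690 to 113700 over the libraries, and 0 were called. Of 10 markers of fibroblasts, the main cells of the dermal stroma, all were detected, with a summed normalised count of 6373 to 18510 at ZT1, 962.7 to 4583 at ZT7, 735.9 to 9745 at ZT13 and 1249 to 13190 at ZT19. Their median log2 fold change from ZT1 to ZT7 was -1.41, and 1, Ccdc80, was called (-3.17 ± 0.52, SE, edgeR adjusted p = 0.0357). Their mean had r = -0.282 with the mean of the members over the 20 libraries and r = -0.564 within time points. The part of these cells in the levels of the members was not tested.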

How the data were processed

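Per the methods, RNA of the sorted cells was amplified with SMART-Seq v4, which marks neither strand nor molecule, and sequenced single-end. For alignment to mm10 the authors used STAR, and the raw counts per gene symbol that they deposited came from HTSeq-count, in its Galaxy version 1.0.0. The annotation is not given in the sources used here. Rows that name no gene held 47.5% to 96.7% of the reads per library and were left out.

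Counts were fitted in R 4.3.3 with edgeR 4.0.16 (TMM, filterByExpr by time point, quasi-likelihood F-test on all 20 libraries, Benjamini-Hochberg adjustment over 19209 genes, threshold 0.05). Standard errors are the fold change divided by the root of F. Normalised counts are counts over the relative effective library size, and log2 values used a pseudocount of 1. Transcript lengths came from GENCODE M21 for all 84 members, as did coding lengths, which Rps4l lacks. DESeq2 1.42.0, other scalings and filters, covariates and each library left out were tried as alternatives.

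The members and lists were chosen with earlier results of these data known. Genes were named by a rule: reference genes, Rps6, Rpsa, Rps27a, the 6 smallest p among the time points, the 4 highest and lowest levels per kb, paralogue pairs, and the 3 least correlated members. Others, such as Rpl15, were named after their values were seen. Beyond separate pools, the labels do not say what separates replicates, so p-values measure the spread between these pools. Same-numbered libraries of different time points correlated between -0.541 and 0.343, over 0.1 in 12 of 30 pairs, so the numbers were not used as pairs. Results for some single genes are not reported here.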

Additional observations from a re-analysis of the deposited data

Results flagged for a closer look

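In 120 groups of 5 libraries, members named by the rule at each time point and the share of reads on the members, the gap of the highest or lowest library to its neighbour was set against the whole range of the group on a log2 scale. A gap above 0.71 of the range marks a library as far from the others, and chance alone would mark about 6 of the 120 groups. The members share their libraries, so these marks are not independent of each other.

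ZT7 replicate 1 stood above the other 4 libraries at ZT7 in the share of reads on the members, with a gap of 0.881 of the range. The same library stood above the others for the large subunit genes Rpl32 (0.800), Rpl13a (0.765), Rpl39 (0.777), Rpl41 (0.922), Rpl22 (0.886), Rpl36a (0.842) and Rpl7 (0.767). It did so for the small subunit genes Rps18 (0.925), Rpsa (0.817), Rps27a (0.896), Rps19 (0.754), Rps7 (0.819), Rps29 (0.840), Rps14 (0.874) and Rps27l (0.752). In that library 10095110 reads fell on genes, 4.73% of the genic reads were ambiguous, against 2.19% to 2.56% in the other libraries at ZT7, and 16147 genes were detected. The part of these properties in the result was not tested.

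At ZT13, Rplp0 was lower in replicate 5 than in the others, with a gap of 0.721 of the range. Rpl30, which had few reads in any library, was lower in ZT13 replicate 3, with a gap of 0.839.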

How the results depend on the processing

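The count of members called was 0 in each of the 8 comparisons under each alternative, where the fits of only the time points compared cover the 6 pairs, with the exceptions that DESeq2 called 1 member between ZT13 and ZT19, Rps6 (adjusted p = 0.0494), and that between ZT1 and ZT19 the count ran from 0 to 3 over the fits that left out 1 library, with 3 without ZT19 replicate 4, where 4.55% of all genes were called. The other alternatives gave Rps6 between ZT13 and ZT19 an adjusted p of up to 0.503, and leaving out 1 library gave 0.0855 to 0.248. With the replicate number as a block, which pairs the libraries by number only, edgeR called 0 members in every comparison and the median log2 fold change from ZT13 to ZT19 was 0.54. The medians turned sign in some fits. With an offset for transcript length they were 0.45 from ZT1 to ZT19 and 0.24 from ZT7 to ZT13, and came to -0.08 from ZT1 to ZT13. A covariate for the share of reads that lay on genes, not for their number, made the median from ZT1 to ZT19 0.24. Over the fits that left out 1 library, the median ran from -1.05 to 0.01 for ZT1 to ZT19, from -0.71 to 0.54 for ZT7 to ZT13, from -0.45 to 1.10 for ZT7 to ZT19 and from -0.25 to 1.05 for ZT13 to ZT19, whereas it stayed negative from ZT1 to ZT7 (-1.37 to -0.32) and from ZT1 to ZT13 (-1.31 to -0.50). From ZT1 to ZT7 it was -0.22 with total count normalization (all genes 0.43) and -0.30 with the offset for transcript length (all genes 0.17). Leaving out the 2 libraries with the fewest genes detected, an alternative chosen after seeing the data, gave 0.01 for ZT1 to ZT19 and 0.03 for ZT7 to ZT13. The cause of these shifts was not tested. A share without mitochondrially encoded genes was not run, since 0 rows carry such a symbol here. Counting error is small beside the spread between libraries in the share of reads on the members, with binomial intervals of at most 0.0213 percentage points to either side.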
